A study of Mus musculus with 4 samples.

Results

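The genes described are those of the microtubule and its motors: the α-, β- and γ-tubulins (Tuba, Tubb and Tubg), the kinesins (Kif), the heavy, intermediate and light intermediate chains of cytoplasmic dynein (Dync) and the subunits of dynactin (Dctn). They were taken by symbol, as protein-coding genes whose name begins with such a stem followed by a digit, which gave 68 of 21779 protein-coding genes of the GRCm38 gene table: 17 tubulins, 38 kinesins, 7 dynein chains and 6 dynactin subunits. RUVBL2 was mapped by chromatin immunoprecipitation and sequencing (ChIP-seq), and the hypothalami came from male wild-type (WT) C57BL/J mice aged 8 weeks. The series has 2 RUVBL2 ChIP libraries and 2 input libraries. The labels give no treatment, and do not say whether the numbers 1 and 2 stand for separate animals or pools. The peak list of replicate 1 held 3943 peaks and that of replicate 2 held 6403. The peak names in the list of replicate 2 carry another number than the title of its sample, so which library that list comes from rests on its assignment to the sample in GEO. Their overlaps of at least 1 bp gave 3111 shared regions. A gene was counted as holding a region when the middle of the region lay in the gene body or within 3 kb of either gene end.

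Microtubules are polymers of paired α- and β-tubulin, and γ-tubulin starts their growth. Most kinesins walk towards the growing end of the filament, and cytoplasmic dynein, held on its cargo by dynactin, walks the other way. Neurons use these motors to carry vesicles, mitochondria and RNA along axons and dendrites, while dividing cells use a separate set of kinesins to build the spindle and to complete division. RUVBL2 is an ATPase of chromatin remodelling complexes such as INO80 and of the R2TP co-chaperone, and ChIP-seq reads only its presence on chromatin.

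The promoters printed here show the sequence at starts with and without a shared region. The first 4 belong to tubulin, dynein and kinesin genes with a shared region at their own start, of which Tuba1a and Kif2a are in the neuronal list used below, and the last 3 to mitotic kinesins without one. Of these kinesins, Kif11 still had a peak of replicate 2 alone at its start, which overlaps the printed run. No non-mitotic gene without a shared region is printed, so these runs cannot tell class and region apart. Each run holds the 200 bases before a RefSeq start on GRCm38.p6, written 5′ to 3′ on the strand of the gene. The runs are those of Tuba1a (chr15:98953502-98953701, minus strand), Tuba1b (chr15:98934391-98934590, minus strand), Dync1h1 (chr12:110601195-110601394, plus strand), Kif2a (chr13:107022115-107022314, minus strand), Kif22 (chr7:127042421-127042620, minus strand), Kif11 (chr19:37376182-37376381, plus strand) and Kif23 (chr9:61946800-61946999, minus strand). Capitals mark the letters of the CCAAT box (bound by NF-Y), of the GC box (GGGCGG, bound by SP factors) or of the CHR (TTTGAA, an element of genes active in G2 and mitosis), on either strand.
Tuba1a: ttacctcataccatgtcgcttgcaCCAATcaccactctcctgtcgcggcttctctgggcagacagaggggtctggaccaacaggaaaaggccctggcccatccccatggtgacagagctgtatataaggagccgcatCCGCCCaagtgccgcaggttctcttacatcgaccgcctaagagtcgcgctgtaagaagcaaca
Tuba1b: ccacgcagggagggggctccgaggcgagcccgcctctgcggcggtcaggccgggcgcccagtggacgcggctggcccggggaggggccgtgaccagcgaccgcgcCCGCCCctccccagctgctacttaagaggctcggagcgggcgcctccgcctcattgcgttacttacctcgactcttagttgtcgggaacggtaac
Dync1h1: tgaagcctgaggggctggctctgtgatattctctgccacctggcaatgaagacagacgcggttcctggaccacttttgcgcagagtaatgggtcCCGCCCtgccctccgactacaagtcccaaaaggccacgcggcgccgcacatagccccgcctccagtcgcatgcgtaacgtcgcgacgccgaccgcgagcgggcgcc
Kif2a: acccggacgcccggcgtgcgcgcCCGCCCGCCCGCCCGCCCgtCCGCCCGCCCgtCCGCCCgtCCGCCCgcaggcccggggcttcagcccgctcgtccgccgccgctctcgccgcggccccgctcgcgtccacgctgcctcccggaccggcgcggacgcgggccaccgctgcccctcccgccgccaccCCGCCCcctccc
Kif22: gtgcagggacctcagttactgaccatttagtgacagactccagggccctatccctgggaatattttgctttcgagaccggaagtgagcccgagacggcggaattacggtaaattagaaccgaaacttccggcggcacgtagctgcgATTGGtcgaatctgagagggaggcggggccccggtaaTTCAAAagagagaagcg
Kif11: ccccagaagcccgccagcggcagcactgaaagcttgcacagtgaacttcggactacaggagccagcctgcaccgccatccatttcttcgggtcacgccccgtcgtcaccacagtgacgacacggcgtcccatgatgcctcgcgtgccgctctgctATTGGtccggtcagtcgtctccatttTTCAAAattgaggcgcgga
Kif23: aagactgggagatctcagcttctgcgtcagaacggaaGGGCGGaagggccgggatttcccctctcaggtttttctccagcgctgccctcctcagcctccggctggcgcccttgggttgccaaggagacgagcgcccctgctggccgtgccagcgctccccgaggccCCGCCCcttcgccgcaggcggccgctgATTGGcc
The Kif22 run holds a CCAAT box 54 bases and a CHR 17 bases before the start, and the Kif11 run has them at 45 and 19 bases. The Kif23 run holds a CCAAT box at 7 bases, GC boxes at 34 and 163 bases, and no CHR letters. The longer window of 300 bases searched below does hold CHR letters at Kif23, which is counted there among the mitotic promoters with them. The runs of Tuba1b, Dync1h1 and Kif2a hold GC boxes only, and Kif2a has 9 of them, several overlapping. The Kif2a run lies before the inner of its listed starts and wholly after the outer one. Tuba1a has a CCAAT box at 176 bases and a GC box at 63 bases.

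Of the 68 genes, 18 (26.5%) held a shared region, against 17.2% of all protein-coding genes. By library, 22 of 68 (32.4%) held a peak of replicate 1, against 20.9% of all protein-coding genes, and 37 of 68 (54.4%) held a peak of replicate 2, against 32.6%. With gene ends alone, without gene interiors, 18 of 68 (26.5%) held a shared region, against 16.0%. When a region counted for a single gene, the one with the nearest end, 13 of 68 (19.1%) did, against 13.6%. The 68 genes had a median length of 33412 bp and all protein-coding genes one of 17217 bp. Since the genes were proposed with earlier results known, these shares are a description and were not tested.

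The shared regions of these genes were close in strength to the rest. Their fold enrichment, the authors' value for each peak over the background of their peak caller, had a median of 5.24 (range 3.75 to 7.09) in replicate 1, beside a median of 5.05 over all 3111 shared regions. In replicate 2 the median was 5.19 (range 3.63 to 11), beside 5.35 over all. The reads at the summits numbered 14 to 25 in replicate 1 and 17 to 44 in the other library. The −log10 q of the peaks spanned 2.95 to 10.6 in replicate 1, and 3.48 to 30.3 in replicate 2. All shared regions were ordered by the worse of their ranks in the lists and cut into 4 equal bins. Of the 18 regions, 5 fell in the strongest bin, 7 in the next, then 3, and 3 in the weakest. Intervals given after folds are exact Poisson 95% intervals of the summit reads, which cover counting error only.

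**Figure D1:**
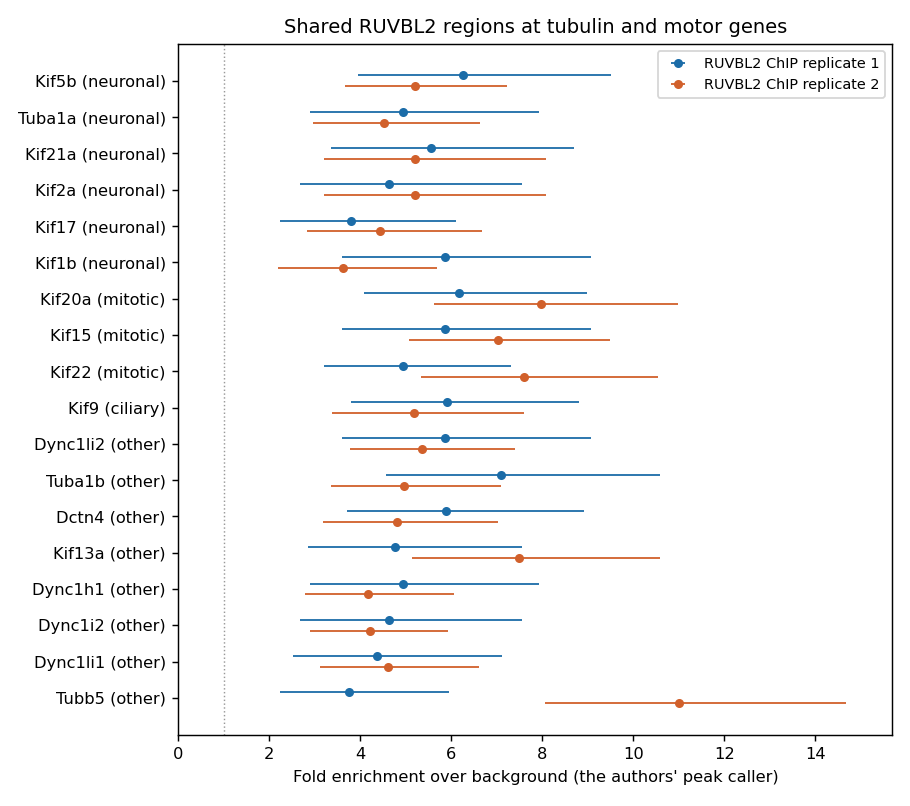
Fold enrichment (x axis, linear) at the 18 shared regions, with points for each ChIP replicate and bars for exact Poisson 95% intervals of the summit reads; the dotted line marks a fold of 1. The intervals of the replicates overlap at every gene drawn except Tubb5, with 3.75 in replicate 1 and 11 in replicate 2.

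Among the tubulins, 3 of 17 held a shared region (17.6%, against 17.2% of all protein-coding genes): Tuba1b, Tuba1a and Tubb5. Tuba1b, the α-tubulin of most cell types, had the highest fold of the 68 genes in replicate 1. Its region (chr15:98933882-98934995) had folds of 7.09 (4.56 to 10.6) in replicate 1, beside 4.97 (3.36 to 7.10) in replicate 2. The summit lay 181 bp before the start in replicate 1 and 111 bp after it in replicate 2. Tuba1a, the α-tubulin of developing and adult neurons, lies in the same cluster. Its region (chr15:98952846-98953850) had folds of 4.93 (2.9 to 7.93) and 4.52 (2.96 to 6.64). Its summits lay 232 bp inside the gene in replicate 1 and 206 bp before the start in replicate 2, so the lists placed the peak on different sides of the start, 438 bp apart. Replicate 2 alone had a further peak 1660 bp before the Tuba1a start, with a fold of 3.92 (2.3 to 6.31). Tuba1c, the next gene of the cluster, had its nearest peak 36598 bp away in replicate 1 and 36653 bp away in replicate 2. The coding sequences of these genes are close copies of each other, and the sources used here do not give how reads with several matches were placed.

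**Figure D2:**
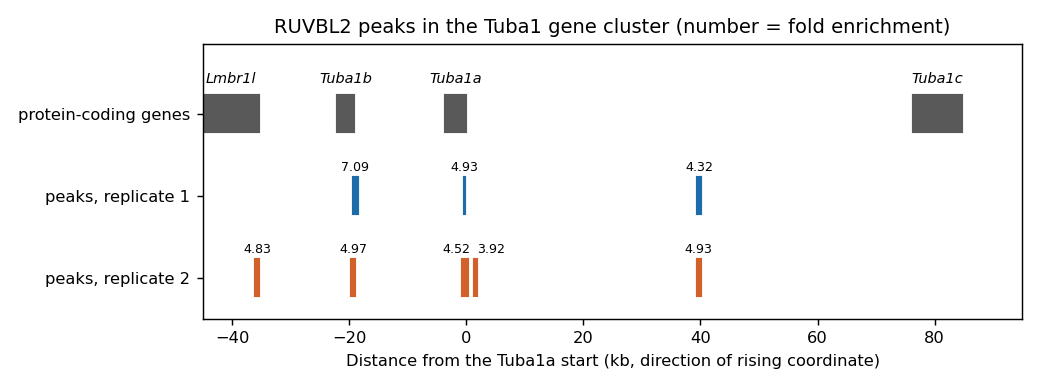
Protein-coding genes (grey) and RUVBL2 peaks of each replicate around the Tuba1a start, by distance in kb in the direction of rising coordinate, with the authors' fold above each peak. Both replicates have a peak at the ends of Tuba1b and Tuba1a, and neither has one at Tuba1c.

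The Tubb5 region differed in place and in strength. Tubb5 is the β-tubulin most common in dividing and non-neuronal cells. The region (chr17:35840865-35841477) lay 2870 bp before its start and 327 bp before the start of Mdc1, a DNA damage response gene, and so counted for Tubb5 only through the 3 kb window. It had a fold of 3.75 (2.24 to 5.95) in replicate 1 and of 11 (8.06 to 14.7) in replicate 2, the highest of the 68 genes there. Replicate 2 alone listed peaks at 4 further tubulin genes. In all, 7 of 17 tubulin genes held a peak of replicate 2 (41.2%, against 32.6% of all protein-coding genes). In replicate 1 it was 3 of 17 (17.6%, against 20.9%). Tubb3, the neuron-specific β-tubulin, had a fold of 5.75 (3.80 to 8.39) with its summit 137 bp before the start. Tubg2, the γ-tubulin found mainly in brain, had 6.52 (4.35 to 9.45), with the summit 188 bp inside the gene. Tubg1, the general γ-tubulin, had 4.07 (2.59 to 6.13) in a peak across its gene end. The middle of that peak lay 100 bp outside the gene and 37 bp from the end of Retreg3. Tubb4b, a broadly expressed β-tubulin, had peaks on both sides of its start, with folds of 4.24 (2.70 to 6.39) and 4.64 (2.98 to 6.92). The other 10 tubulin genes held no peak in either list: Tuba1c, Tuba3a, Tuba3b, Tuba4a, Tuba8, Tubb1, Tubb2a, Tubb2b, Tubb4a and Tubb6.

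Of 20 genes listed as neuronal, known for expression in neurons or for transport in axons and dendrites, 6 held a shared region (30.0%, against 17.2% of all protein-coding genes): Kif5b, Tuba1a, Kif21a, Kif2a, Kif17 and Kif1b. Of these 6, only Tuba1a and Kif17 are also in a narrower list of 13 neuron-enriched genes, described below. The others are in the list of 20 alone. Kif5b encodes the broadly expressed heavy chain of conventional kinesin. Its region (chr18:6241080-6241693) had its middle 138 bp inside the gene end of higher coordinate, with folds of 6.26 (3.94 to 9.51) in replicate 1, beside 5.21 (3.65 to 7.22) in replicate 2. Kif21a, a kinesin that slows microtubule growth, had folds of 5.55 (3.36 to 8.70) and 5.21 (3.20 to 8.08), with summits 188 and 129 bp after a start. Kif2a, which takes microtubule ends apart and trims axon branches, had 4.62 (2.67 to 7.55) and 5.21 (3.20 to 8.08), with summits after both of its listed starts. A neighbouring peak of replicate 1, of 5.24 (3.13 to 8.32), lay before both of these starts. Kif1b, a carrier of synaptic vesicle precursors and mitochondria, had 5.86 (3.60 to 9.08) and 3.63 (2.20 to 5.69). Kif17, a dendritic motor that carries NMDA receptor subunits, had 3.79 (2.23 to 6.11) and 4.44 (2.82 to 6.67), near the low end of the range in both libraries. Replicate 2 had a further peak of 4.87 (3.10 to 7.32) 2878 bp outside the far end of Kif17, 113 bp from the end of Ddost.

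A further 7 neuronal genes held a peak in replicate 2 only. With the 6 genes above and Kif3c, described below, 14 of 20 had a peak of replicate 2 (70.0%, against 32.6% of all protein-coding genes). The 7 included several of the classical axonal motors. Kif5a, a neuron-specific kinesin heavy chain, shares its peak with Dctn2 (dynamitin), the middle of which lay 172 bp from the end of Kif5a and 258 bp from that of Dctn2, with a fold of 5.51 (3.64 to 8.03). Kif5c, the other neuronal heavy chain, had 3.79 (2.26 to 6.01). Kif3b and Kif3a, the motor pair of kinesin-2, had 4.66 (2.86 to 7.22) and 3.86 (2.40 to 5.92). Kif21b had 4.27 (2.62 to 6.62) deep in the gene, 9119 bp from its end, and Tubb3 and Tubg2 are given above. Kif3c, the neuron-enriched kinesin-2, had a peak in each list, of 4.01 (2.22 to 6.77) in replicate 1, beside 4.12 (2.50 to 6.46) in replicate 2, which did not overlap. The remaining 6 held no peak in either list: Kif1a, the main carrier of synaptic vesicle precursors, Kif13b, Dync1i1, the neuron-enriched dynein intermediate chain, Tubb2a, Tubb2b and Tubb4a. The nearest peak to Kif1a lay 80979 bp away in replicate 1 and 80807 bp away in replicate 2, and that to Dync1i1 550406 and 550349 bp away. The hypothalamus was taken whole, so that a peak missed because few cells carry it and a peak weak in all cells cannot be told apart.

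Of 12 kinesins listed as mitotic, 3 held a shared region (25%, against 17.2% of all protein-coding genes): Kif20a, Kif15 and Kif22. Kif20a acts in cytokinesis, Kif15 in the spindle and Kif22 in moving chromosome arms. The Kif20a region (chr18:34624112-34624865) stood highest of the 18 by the worse of its ranks, with folds of 6.17 (4.08 to 8.99) in replicate 1, beside 7.97 (5.62 to 10.99) in replicate 2. Its middle lay 136 bp outside the end of Kif20a and 375 bp from the end of Brd8, a subunit of the RUVBL2-containing TIP60 complex. At Kif15 the region (chr9:123020882-123021592) had folds of 5.86 (3.60 to 9.08) and 7.02 (5.07 to 9.50). It lay 2504 bp beyond the far end of Kif15, 70156 bp from its start, and 89 bp before the start of Tmem42. At Kif22 the region (chr7:127027239-127028156) had folds of 4.94 (3.21 to 7.31) and 7.60 (5.33 to 10.5). The middle of this region lay 32 bp beyond the far end of Kif22, 14723 bp from its start, and 692 bp before the nearest start of Maz, a zinc finger transcription factor gene. Replicate 1 had a second peak there of 4.46 (2.58 to 7.29), 897 bp from an end of Maz. The regions of Kif15 and Kif22 were thus at the 3′ end of the kinesin, closer to the start of a neighbour than to their own start. That of Kif22 was still nearer to its own gene end than to an end of Maz. The Kif20a region, too, lay near its own gene end.

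Single lists added 3 mitotic kinesins, so that 4 of 12 held a peak of replicate 1 and 5 of 12 one of replicate 2 (33.3% and 41.7%, against 20.9% and 32.6% of all protein-coding genes). Kif11, which pushes spindle poles apart, had a peak of replicate 2 of 4.54 (2.92 to 6.77), 191 bp before its start. Kif23, a cytokinesis motor, was counted in replicate 2 for a peak of 5.09 (3.27 to 7.59) that lay 2757 bp beyond its far end and 10 bp from the end of the ribosomal protein gene Rplp1. Kif2c, a centromeric microtubule depolymerase, had a peak of replicate 1 of 3.90 (2.21 to 6.47), 222 bp outside the upstream end of the gene, while its listed start lies further inside, 4151 bp from the summit. At the start of Kif15 itself, replicate 2 alone had a peak of 6.60 (4.32 to 9.69). Its summit lay 280 bp before that start, and its middle 174 bp from the end of 1110059G10Rik. No peak was listed at Kif14, Kif18a, Kif18b, Kif20b, Kif2b or Kif4.

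Counted by the gene body and 3 kb around it, the neuronal and mitotic lists differed little in shared regions: 6 of 20 neuronal genes (30.0%) and 3 of 12 mitotic genes (25%), a difference of 5 percentage points, with 17.2% over all protein-coding genes. In replicate 1 the shares were 7 of 20 (35.0%) and 4 of 12 (33.3%), with 20.9% over all. In replicate 2 they were 14 of 20 (70.0%) and 5 of 12 (41.7%), with 32.6% over all. The order depended on how strictly peaks and genes were chosen. With a −log10 q of at least 5 in both lists, 2 of 20 neuronal and 3 of 12 mitotic genes held a region, 15 points lower in the neuronal list. The share of all protein-coding genes at that threshold is not given here, so neither count can be placed above or below it. Without that threshold, 2 (15.4%) of a narrower list of 13 neuron-enriched genes held a shared region, Tuba1a and Kif17. This was below the 3 of 12 mitotic genes and close to the 17.2% of all protein-coding genes. Gene length differed little between the lists, with medians of 41009 bp in the neuronal and 37508 bp in the mitotic list.

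The broad neuronal list and the mitotic list parted further when only peaks at the start of the gene were counted, a measure chosen after the values were seen. RefSeq starts were listed for 15 of the 20 neuronal and 11 of the 12 mitotic genes, and for 54 of the 68 genes in all. A shared region had its middle within 1 kb of a listed start at 5 of 15 neuronal genes (33.3%) and at 0 of 11 mitotic genes, which allows a share of up to 27.3% when 3 counts of the total are taken as the limit. Over all protein-coding genes with a listed start the share was 15.5%, and over the 54 genes it was 11 of 54 (20.4%). With the narrower neuronal list it was 2 of 10 genes (20%), nearer to the share of all genes. In replicate 1 alone, 6 of 15 neuronal genes (40.0%) and 0 of 11 mitotic genes had a peak there, against 18.7% of all. The 0 leaves out Kif2c, whose peak of replicate 1 lies at the upstream gene end but over 1 kb from its listed start. In replicate 2 alone, 11 of 15 neuronal genes (73.3%) and 2 of 11 mitotic genes (18.2%) did, against 29.3% of all. Those without a listed start were Kif5a, Kif5b, Kif13b, Kif21b and Tubb2b among the neuronal genes, Kif20a, whose region lay at a gene end, among the mitotic ones, and Kif19a, Kif28, Tubb6, Tubg1, Dync1li2, Dync2li1, Dctn4 and Dctn6 among the rest. No test was run on the difference, since the genes and the measure were chosen with results known.

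**Figure D3:**
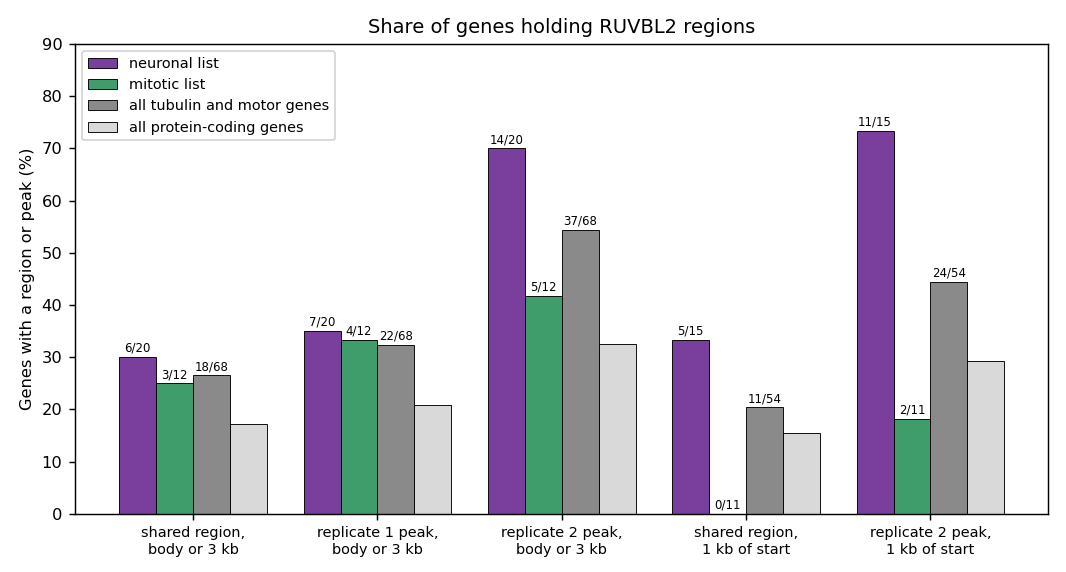
Percent of genes (y axis) that hold a shared region or a peak of a single replicate, for the neuronal list, the mitotic list, all 68 tubulin and motor genes and all protein-coding genes; the right groups of bars count peaks within 1 kb of a RefSeq start, over genes with a listed start, and the numbers above bars are genes. The neuronal and mitotic bars are close for shared regions in and around the gene (30.0% and 25%) and apart at starts (33.3% and 0).

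Dynein had the highest share of the 4 families. Of its 5 cytoplasmic dynein 1 chains, 4 held a shared region: Dync1h1, the motor heavy chain, Dync1i2, the broadly expressed intermediate chain, and the light intermediate chains Dync1li1 and Dync1li2. Dync1li2 (chr8:104442488-104443125) had folds of 5.86 (3.60 to 9.08) in replicate 1, beside 5.36 (3.78 to 7.39) in replicate 2. Dync1h1 (chr12:110601450-110602097) had 4.93 (2.9 to 7.93) and 4.18 (2.78 to 6.05), with the summits 256 and 257 bp after the start, 1 bp apart. Dync1i2 had 4.62 (2.67 to 7.55) and 4.21 (2.9 to 5.92), and Dync1li1 had 4.36 (2.51 to 7.11) and 4.62 (3.12 to 6.60). The 4 genes thus spanned folds of 4.36 to 5.86 in replicate 1 and of 4.18 to 5.36 in the other library. Most of these peaks were weak in replicate 1, with a −log10 q of 4.71 at Dync1h1, 3.98 at Dync1i2 and 3.60 at Dync1li1. Of the 4, Dync1li2 alone (7.075 and 12.6) reached a −log10 q of 5 in both lists. The chain without a peak was Dync1i1, the intermediate chain enriched in neurons. Of the dynein 2 chains of cilia, Dync2h1 had a peak in replicate 2 only, of 3.43 (2.05 to 5.44), with the summit 270 bp after a listed start and the middle 271 bp from the end of Dcun1d5, and Dync2li1 had none. In all, 4 of 7 dynein genes (57.1%) held a shared region, against 17.2% of all protein-coding genes.

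Of 6 dynactin subunits, 4 held a peak of replicate 2, the longer list (66.7%, against 32.6% of all protein-coding genes). In replicate 1 it was 1 of 6 (16.7%, against 20.9%). Over all 68 genes, too, more held a peak of replicate 2 than of replicate 1 (37 and 22). Dctn4, a subunit of the pointed-end complex, was the only one of 6 counted with a shared region (16.7%, against 17.2% of all protein-coding genes). That region (chr18:60560499-60561043, folds 5.88 and 4.82) lay 2005 bp outside the gene and 15 bp from the end of Rbm22, a splicing factor gene. At the opposite end of Dctn4, replicate 2 alone had a stronger peak of 6.31 (4.35 to 8.88), with its middle 228 bp inside the gene. Dctn1, the large subunit that binds microtubules and dynein, had a peak of replicate 2 of 3.83 (2.35 to 5.94) across the gene end, with its middle 83 bp outside. Dctn2 shares the peak with Kif5a given above. Dctn3 was counted for a peak of 6.28 (4.15 to 9.16) that lay 1220 bp outside the gene and 61 bp from the end of Rpp25l. Dctn5 and Dctn6 held none. With only the nearest gene end counted, 0 of 6 dynactin genes held a shared region, which allows a share of up to 50% when 3 counts of the total are taken as the limit, against 13.6% of all protein-coding genes.

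Of the 13 kinesins in neither the neuronal nor the mitotic list, 2 held a shared region (15.4%, against 17.2% of all protein-coding genes). Kif13a, a motor of endosome transport, had folds of 4.76 (2.84 to 7.55) in replicate 1, beside 7.49 (5.13 to 10.6) in replicate 2 (chr13:46929395-46930433), with summits 458 and 390 bp before its start. Kif9, a kinesin of motile cilia, had 5.91 (3.80 to 8.81) and 5.17 (3.39 to 7.59) in a region with its middle 142 bp from the end of Kif9 and 141 bp from that of Klhl18. It was the only 1 of 8 ciliary genes with a shared region (12.5%, against 17.2% of all protein-coding genes). Kif1c, a motor of vesicles and RNA, had abutting peaks that did not overlap, of 3.64 (2.02 to 6.15) in replicate 1, beside 3.66 (2.36 to 5.46) in replicate 2. Kif16b, an endosome motor, had 4.07 (2.35 to 6.65) and Kif7, a ciliary regulator of Hedgehog signalling, 4.39 (2.58 to 7.06), both in replicate 2 only. Kif19a, a ciliary kinesin, had 4.32 (2.44 to 7.16) in replicate 1 only, 625 bp outside the gene. Kif6, Kif12, Kif24, Kif26a, Kif26b, Kif27 and Kif28 held no peak.

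Summits at starts lay mostly just inside the gene. At the 11 genes with a shared region within 1 kb of a listed start, the median summit lay 147 bp after the start in replicate 1 and 70 bp after it in replicate 2. Over all protein-coding genes with such a region the median was 88 bp in both libraries. Of the 11 summits, 8 in replicate 1 (72.7%) and 7 in replicate 2 (63.6%) lay after the start, against 65.7% and 64.8% over all. Kif9 and Kif13a had both summits over 300 bp before the start, and at Tuba1a, Tuba1b and Dync1i2 the replicates fell on different sides of it. At 5 of the 18 shared regions a neighbouring gene's end was closer than that of the gene counted: those of Kif9, Kif15, Kif21a, Tubb5 and Dctn4.

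**Figure D4:**
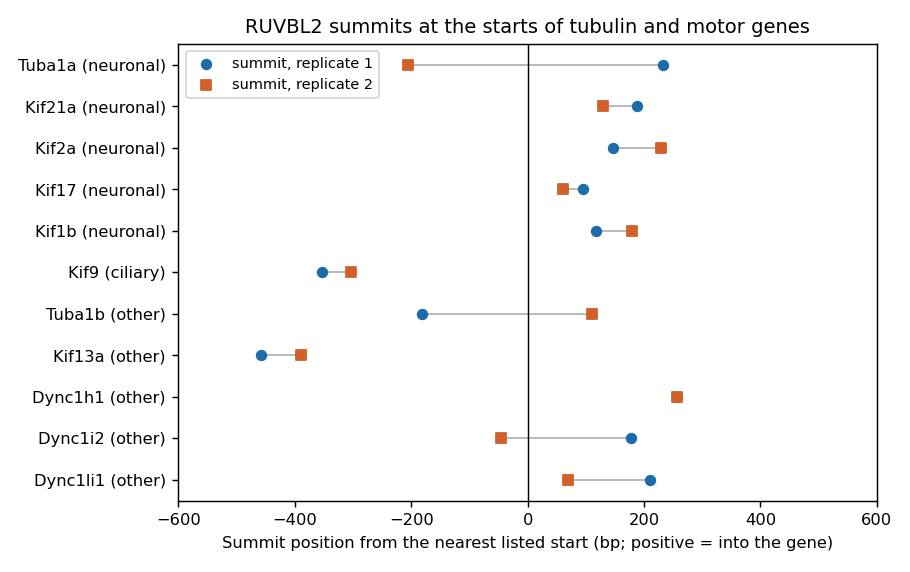
Position of the summit of each replicate (x axis, bp from the nearest RefSeq start, positive into the gene) for the 11 genes with a shared region within 1 kb of a listed start; grey lines join the replicates, and the points of Dync1h1 coincide. All but Kif9 and Kif13a have at least 1 summit after the start.

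The promoters of the neuronal and mitotic genes differed in their motifs. Each was searched over 300 bases, from 250 before a listed start to 50 after it, on both strands, for the CCAAT box, the GC box and the CHR as spelled above, and for the cAMP response element (CRE, TGACGTCA), the E-box (CACGTG) and the TATA box (TATAAA). No motif searched contains another. The CHR letters stood in 1 of 18 neuronal promoters (5.56%) and 9 of 11 mitotic promoters (81.8%), with 16.0% over 21263 promoters of all protein-coding genes. CCAAT stood in 6 of 18 neuronal (33.3%) and 7 of 11 mitotic promoters (63.6%), with 38.2% over all. GC boxes stood in 66.7% and 54.5%, with 46.2% over all, and the CRE in 3 of 18 and 1 of 11, with 2.23% over all. Of the 15 promoters of tubulin and motor genes with a shared region within 1 kb of a start, 13 held a GC box (86.7%), 3 held CCAAT (20%) and 0 held the CHR letters. Over all protein-coding genes with such a region these shares were 67.9%, 32.7% and 10.2%. The 0 of 15 allows a share of up to 20% when 3 counts of the total are taken as the limit. None of the 15 promoters was that of a mitotic gene, so the 0 partly repeats the 0 of 11 mitotic genes at starts given above. Genes with more than 1 listed start enter with each, so those of Kif1a, Kif1b, Kif2a, Kif9, Dync1i2 and Dctn1 are counted more than once. Median CpG ratios, observed over that from base content, were 0.730 in neuronal and 0.901 in mitotic promoters, beside 0.855 over promoters of all genes with a region and 0.463 over those without. A match of letters is not a measured binding site.

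**Figure D5:**
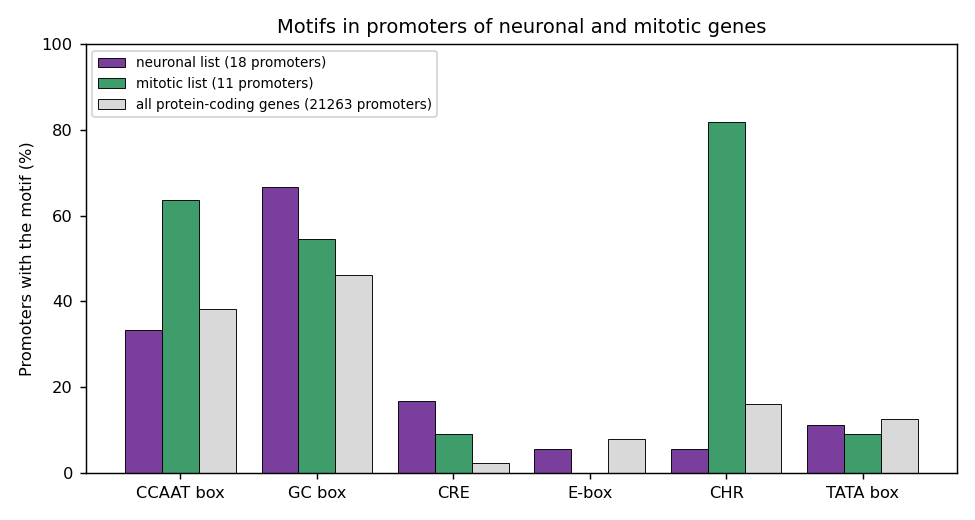
Percent of promoters (y axis) that hold each motif on either strand within 250 bases before and 50 after a RefSeq start, for the neuronal list, the mitotic list and all protein-coding genes. The CHR bar of the mitotic list (81.8%) stands far above those of the neuronal list (5.56%) and of all genes (16.0%).

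Genes that work with these proteins were counted the same way. Of 37 genes of motor adaptors and light chains, 13 held a shared region (35.1%, against 17.2% of all protein-coding genes). The region at Pafah1b1 (LIS1), which regulates dynein, had folds of 7.4 (4.80 to 10.95) in replicate 1, beside 9.20 (6.61 to 12.5) in replicate 2, above the 4 dynein chains in both libraries. Klc1, a kinesin light chain, had 6.77 (4.31 to 10.2) and 6.52 (4.44 to 9.27), Capza2, a capping protein that is part of dynactin, 6.34 (3.99 to 9.62) and 6.41 (4.39 to 9.06), and the dynein adaptor Hook3 7.09 (4.56 to 10.6) and 5.19 (3.48 to 7.46). Of 58 partners of tubulin, 12 held one (20.7%). They included the tubulin folding cofactor Tbcb (7.25 and 7.88), the severing enzyme Spast (5.62 and 4.99), Camsap2, which caps minus ends (5.25 and 4.80), and Map1s (4.93 and 6.05). The Tbcb region lay nearer the end of Polr2i, and that of Hook3 nearer the end of Rnf170.

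Markers of cell types and of division were counted beside 17.2% of all protein-coding genes with a shared region and 32.6% with a peak of replicate 2. Of 20 proliferation markers such as Mki67, Top2a and Cdk1, Aurka alone held a shared region (5%; folds 4.32 and 3.59), and of 20 neuron markers Rbfox3 alone did (5%; folds 6.17 and 4.66, deep in the gene). A peak of replicate 2 was held by 2 of the 20 proliferation markers (10.0%) and by 4 of the 20 neuron markers (20%). No astrocyte, oligodendrocyte, microglia or endothelial marker, of 8 each, held a shared region, which allows shares of up to 37.5% when 3 counts of the total are taken as the limit. Of 8 ependymal and tanycyte markers, Col23a1 did (folds 4.93 and 4.34), in a region nearer the end of Phykpl. ChIP peaks do not measure expression, and the part of any cell type in the regions above was not tested.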

How the data were processed

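RUVBL2 ChIP-seq of mouse hypothalamus was read from the peak list of each of 2 ChIP libraries, and the 2 inputs entered no comparison. Chromatin was crosslinked for 10 min with 1% formaldehyde, with 15 cycles of amplification and paired 150 bp reads, per the labels' protocols. Per the submitters' processing notes, the tools named are MACS2 2.1.0, Bowtie2 2.3.4.1, Trimmomatic 0.33, bcl2fastq 2.17 and ChIPseeker (in no order), and the build is GRCm38. Settings, and whether the inputs served as control, are not stated there. The deposited values of each peak are a fold ratio over background, a −log10 p, a −log10 q and a score that repeats the q; the summit offset and summit lists repeat the positions. Peaks were called per library. The lists give no total of reads, so the depth of each library is unknown here.

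Summit reads were solved from the fold and the −log10 p, matching a whole number within a relative 0.0001 at 100% and 99.98% of peaks; on simulated peaks, 498 of 498 were recovered. Gene ends came from a RefSeq table of GRCm38.p6 leaving out genes placed below 3 Mb, an unsequenced gap, except on Y, and starts and strands from RefSeq promoters of 17492 protein-coding genes. Folds of the replicates were not pooled. No test was run: with 2 libraries and no values per group, shares are set beside those of all protein-coding genes. If the ChIP replicates are not separate animals, the overlap of their lists may be technical. Genes and lists were chosen with earlier results of these data known. By rule, each gene with a shared region or a peak in 1 list is named, as are neuronal and mitotic genes without peaks and up to 4 genes of each further list; Kif4 and other genes without a peak were all named for completeness. Alternatives were other windows, overlaps, thresholds and single lists. The work used Python 3.11.15, numpy 2.4.6, pandas 2.3.3 and scipy 1.17.1.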

Additional observations from a re-analysis of the deposited data

How the results depend on the processing

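Counts of genes with a shared region were recomputed with a 1 kb window, gene ends only, nearest gene end only, 50% overlap, summits within 250 bp, stricter thresholds, single lists and a narrow neuronal list; 37 of 58 recomputed counts stayed within 1.5 times the reported count. The difference of 5 percentage points between the neuronal and mitotic lists was 13.3 with the 1 kb window, 8.33 with the nearest end, 0 with summits within 250 bp, and 5 with gene ends or 50% overlap. Where a value moved further, the cause was not tested except as said. With a −log10 q of at least 5, the count was 9 of the 68 genes, 2 of the neuronal, 1 of the tubulin, 6 of the kinesin and 2 of the dynein and dynactin genes, and the neuronal minus mitotic difference was −15 percentage points. With the top 1000 peaks of each list, the counts were 1 of all, 0 neuronal, 1 mitotic, 0 tubulin, 1 kinesin and 0 dynein and dynactin genes, and the difference was −8.33 points. Both settings keep fewer peaks by construction. The shares of all protein-coding genes under them are not given here, so these counts describe the listed genes only. With summits within 250 bp, 1 tubulin gene held a region, Tubb5, whose summits lay 118 bp apart. That region lies 327 bp before the start of Mdc1. The summits of Tuba1b lay 292 bp apart and those of Tuba1a 438 bp. The share of all protein-coding genes with summits this close is not given here. With the narrow neuronal list, 2 genes did and the difference was −9.62 points. Within 1 kb of a listed start, chosen after seeing the data, 0 mitotic genes did and the difference was 33.3 points. With the narrow neuronal list there, also chosen after seeing the data, 2 neuronal genes did and the difference was 20 points. Without 1 ChIP replicate, that is in a single list, counts were 22 to 37 over all genes, 7 to 14 neuronal, 4 to 5 mitotic, 3 to 7 tubulin, 14 to 21 kinesin and 5 to 9 dynein and dynactin genes, and the difference was 1.67 to 28.3 points; the higher counts were those of replicate 2, the longer list. No paired analysis was possible because the input libraries have no values used here and the results come from no test. The summit reads of 14 to 44 limit the precision of each fold.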
